A study of Mus musculus with 8 samples.

Results

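The genes described here are 35 mouse germline genes, of the kinds that body cells are known to keep silent through DNA methylation at their promoters. The rule that picks them uses their names and no measured value, although earlier results of these data were known when the list was made. Each was represented by the probe set that carried its symbol alone, or by the probe set with the highest mean signal where there were several. All 35 had such a probe set, out of 19938 genes measured. Signals were log2 values from an Affymetrix whole-transcript array, and 8 arrays were made, 2 for each of 4 groups. The groups were Th17 cells and Th1 cells from CD2(Cre)Tet2(f/f) mice, called Tet2-deficient, and Th17 cells and Th1 cells from Tet2(f/f) mice, called wild-type. Th17 cells are the T helper subset known for interleukin-17, Th1 cells the subset known for interferon-gamma, and Tet2 is the enzyme which oxidizes the methyl group of methylated cytosines, a step towards its removal.

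Every group, the wild-type ones included, carried Tet2 alleles flanked by recombination sites, and the Tet2-deficient groups in addition carried Cre under the name of CD2, a gene of T cells and other lymphoid cells. The labels give neither the age or sex of the mice nor the part of Tet2 that Cre removes, and they number the arrays of a group as biological replicates without saying which animals they came from. P-values therefore measure the spread between these arrays. DNA methylation was not measured on them, so the genes are described here by RNA signal alone.

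In most body cells the promoters of many germline genes are methylated around the time of implantation by the DNA methyltransferases and stay so, which keeps piRNA, meiosis and early germ cell genes off. A repressor complex with the DNA-binding proteins E2F6, MGA and MAX marks many of the same promoters, through an E2F6 motif and an E-box. TET enzymes act in the opposite direction and, in mouse primordial germ cells, take part in the demethylation that lets some meiotic genes be switched on.

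The promoter is where such silencing is set, so the 250 bases before the transcription start of 6 of the genes are shown, from RefSeq, build GRCm38.p6. For Ddx4 and Hormad2 the start used lies inside the span of the gene, so their windows overlap the gene. Capitals mark the E-box CACGTG, which reads the same on both strands, and the E2F6 motif TCCCGC, searched on both strands, so that GCGGGA is the same motif on the other strand. An E-box and an E2F6 motif can share at most an end letter. Mael (chr1:166238745-166238994, minus strand), Ddx4 (chr13:112652311-112652560, minus strand) and Sycp3 (chr10:88459337-88459586, plus strand) are shown because their promoters hold both motifs. Tdrkh (chr3:94412994-94413243, plus strand), Hormad2 (chr11:4441083-4441332, minus strand) and Dazl (chr17:50293621-50293870, minus strand) are shown because they differed between Th17 and Th1 cells, as described further on, and these windows hold neither motif.
Mael: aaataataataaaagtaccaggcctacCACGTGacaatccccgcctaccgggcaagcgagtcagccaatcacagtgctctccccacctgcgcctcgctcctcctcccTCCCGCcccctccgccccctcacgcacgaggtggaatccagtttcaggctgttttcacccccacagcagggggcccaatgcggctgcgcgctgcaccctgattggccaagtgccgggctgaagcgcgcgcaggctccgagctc
Ddx4: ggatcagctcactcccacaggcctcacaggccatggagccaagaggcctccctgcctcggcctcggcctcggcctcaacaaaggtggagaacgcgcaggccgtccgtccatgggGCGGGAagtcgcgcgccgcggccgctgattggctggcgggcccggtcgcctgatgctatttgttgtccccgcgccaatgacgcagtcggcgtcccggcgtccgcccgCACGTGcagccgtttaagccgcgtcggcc
Sycp3: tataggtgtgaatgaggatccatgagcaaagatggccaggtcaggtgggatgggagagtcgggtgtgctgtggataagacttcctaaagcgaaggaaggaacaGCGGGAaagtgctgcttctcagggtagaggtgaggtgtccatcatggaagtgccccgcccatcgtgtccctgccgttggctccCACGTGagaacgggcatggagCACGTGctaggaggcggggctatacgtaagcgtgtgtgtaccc
Tdrkh: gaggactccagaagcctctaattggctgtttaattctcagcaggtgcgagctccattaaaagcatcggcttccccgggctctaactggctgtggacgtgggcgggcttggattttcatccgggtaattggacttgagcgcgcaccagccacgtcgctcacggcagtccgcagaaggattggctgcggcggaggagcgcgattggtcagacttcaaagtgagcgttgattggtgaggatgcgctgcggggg
Hormad2: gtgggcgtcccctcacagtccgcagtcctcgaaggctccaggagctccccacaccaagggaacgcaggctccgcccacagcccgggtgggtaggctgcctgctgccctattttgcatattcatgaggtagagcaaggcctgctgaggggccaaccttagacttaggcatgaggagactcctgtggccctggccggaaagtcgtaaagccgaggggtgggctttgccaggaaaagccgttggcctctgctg
Dazl: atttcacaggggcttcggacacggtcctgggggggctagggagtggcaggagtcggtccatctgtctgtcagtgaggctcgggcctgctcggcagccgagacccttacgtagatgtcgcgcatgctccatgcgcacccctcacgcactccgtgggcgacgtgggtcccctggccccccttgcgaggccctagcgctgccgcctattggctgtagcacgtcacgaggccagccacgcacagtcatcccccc

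Promoters of 300 bases, 250 before to 50 after the start, were available for 28 of the 35 genes, in 34 windows. A promoter was called GC-rich at a GC content of at least 50% and a CpG observed over expected ratio of at least 0.6, and 18 of the 28 genes (64.3%) had one, against 36% of all 27025 genes with a promoter. The E-box lay in the promoters of 14 of the 28 genes (50%), against 8.09% of all genes. Among GC-rich promoters alone it lay in 11 of 18 germline genes (61.1%), against 12.1% of all genes. The E2F6 motif lay in 11 of the 28 genes (39.3%), against 22% of all genes, and among GC-rich promoters in 55.6% of germline genes, against 47% of all genes. Both motifs were found in 7 of the 28 genes (25%), against 2.65% of all genes, and neither in 10 (35.7%), against 72.5% of all genes. In Ddx4, which encodes the VASA RNA helicase of germ cells, the E-box started at -29 and the E2F6 motif at -136, in bases from the transcription start. In Sycp3, a protein of the axis of meiotic chromosomes, E-boxes started at -64 and -43. The plot of motif positions shows E-boxes from -246 to -11. A match is a stretch of letters and no evidence of binding.

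**Figure D1:**
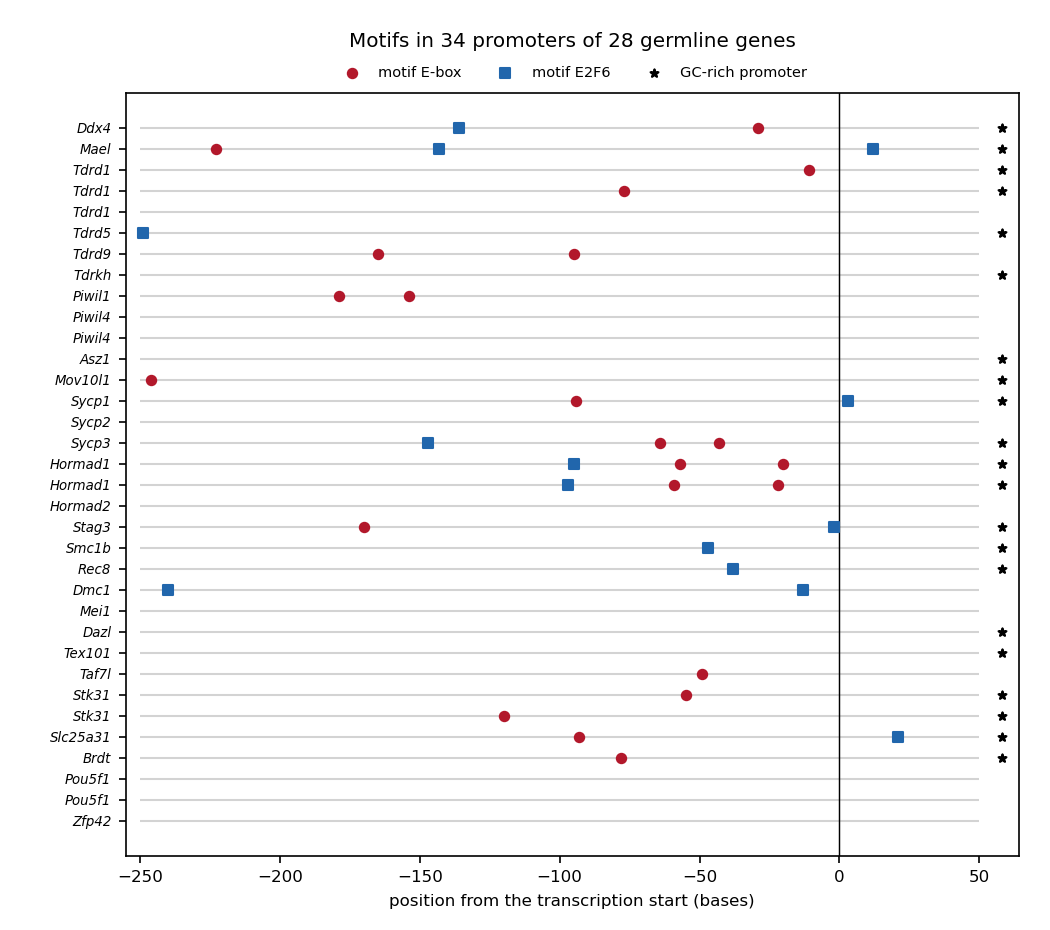
Positions of the E-box and the E2F6 motif in 34 promoter windows of 28 germline genes; the horizontal axis is the distance in bases from the transcription start, each grey line is one window, and a star marks a GC-rich promoter. The windows of Tdrkh, Hormad2 and Dazl hold neither motif.

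On every array the median signal of all genes lay between 6.53 and 6.61, and arrays of a group correlated across genes at 0.990 to 0.994. The 7 measured T cell markers, Cd3e and Cd4 among them, all had high signals, and the Th17 markers Il17a, Il17f, Il23r and Ccr6 were each higher in Th17 than in Th1 cells. All 5 Th1 markers were lower in Th17 cells, averaged over genotypes, and 4 of them passed at a limma adjusted p under 0.05. The Tet2 probe set read 8.34 and 8.39 on the Tet2-deficient and 8.51 and 8.49 on the wild-type Th17 arrays, and 8.12 and 7.98 on the Tet2-deficient and 8.14 and 8.02 on the wild-type Th1 arrays. That signal does not check the genotype, because the deleted part of the gene is not given. The share of female RNA, scaled from the linear Xist signal with the Th1 mean at 0 and the highest array at 100%, was 14.7% and 100% in Tet2-deficient Th17 cells and 0.187% and 42.9% in wild-type Th17 cells. All Th1 arrays were near 0%, so this share moved with the subset, and the averaged subset calls are given below with its effect on them. Within Th17 cells the share also differed between the arrays of the genotypes, so the Tet2 effects there are not free of it.

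Most of the germline genes gave low signals. Their mean over the 8 arrays ran from 3.77 (Sycp1) to 7.54 (Tdrkh), with a median of 5.20, and 31 of the 35 lay under 6.56, the median of all genes. On single arrays between 30 and 32 of the 35 lay under that array's own median. Olfactory receptor genes, which a T cell is not known to use, give a mark for low signals: 95% of the 1027 measured lay at or under 6.73. At or under this mark were 32 of the germline genes, as were 53.8% of all genes. Probe sets differ in how strongly they bind, so these counts describe the signals and do not rank the genes by RNA. For a probe set at or under the mark, a difference below is one of signal, and the size of any RNA difference behind it was not measured. In a bulk sample, fewer cells that hold an RNA and less of it per cell cannot be told apart.

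Tdrkh, Hormad1 and Tex15 lay above the mark. Tdrkh, a Tudor and KH domain protein that holds PIWI proteins at mitochondria, read 8.03 and 8.06 in Tet2-deficient Th17 cells, 7.67 and 7.71 in wild-type Th17 cells, 6.83 and 7.34 in Tet2-deficient Th1 cells and 7.08 and 7.56 in wild-type Th1 cells. It was high on every array and highest on all 4 Th17 arrays. Hormad1, a HORMA domain protein of the meiotic chromosome axis, read 6.80 and 6.93 in Tet2-deficient Th17 cells, 6.97 and 6.80 in wild-type Th17 cells, 6.96 and 6.99 in Tet2-deficient Th1 cells and 7.07 and 7.06 in wild-type Th1 cells. Its arrays lay close together, but a second probe set with the symbol Hormad1 read only 3.42 to 3.72, so which of them reports the gene is uncertain. Tex15, which acts in meiotic recombination and, in mouse germ cells, in piRNA-directed DNA methylation, is described with the Tet2 comparison below.

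Mei1, needed for the DNA breaks of meiosis, read 6.64 and 6.73 in Tet2-deficient Th17 cells, 6.73 and 6.62 in wild-type Th17 cells, 6.80 and 6.80 in Tet2-deficient Th1 cells and 6.81 and 6.60 in wild-type Th1 cells. Tdrd9, a helicase with a Tudor domain in the piRNA pathway, read 6.46 and 6.28 in Tet2-deficient Th17 cells, 6.33 and 6.36 in wild-type Th17 cells, 6.53 and 6.44 in Tet2-deficient Th1 cells and 6.47 and 6.41 in wild-type Th1 cells. Neither gene separated the genotypes in either subset. The range of a gene over the 8 arrays was 0.39 at the median of the germline genes and 0.44 at the median of all genes. It exceeded 1 log2 unit for 3 of the 35, Hormad2, Tdrkh and Slc25a31, and for 5.07% of all genes. The plot of signals by array shows these 3 genes spread out and most others as tight groups of points.

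**Figure D2:**
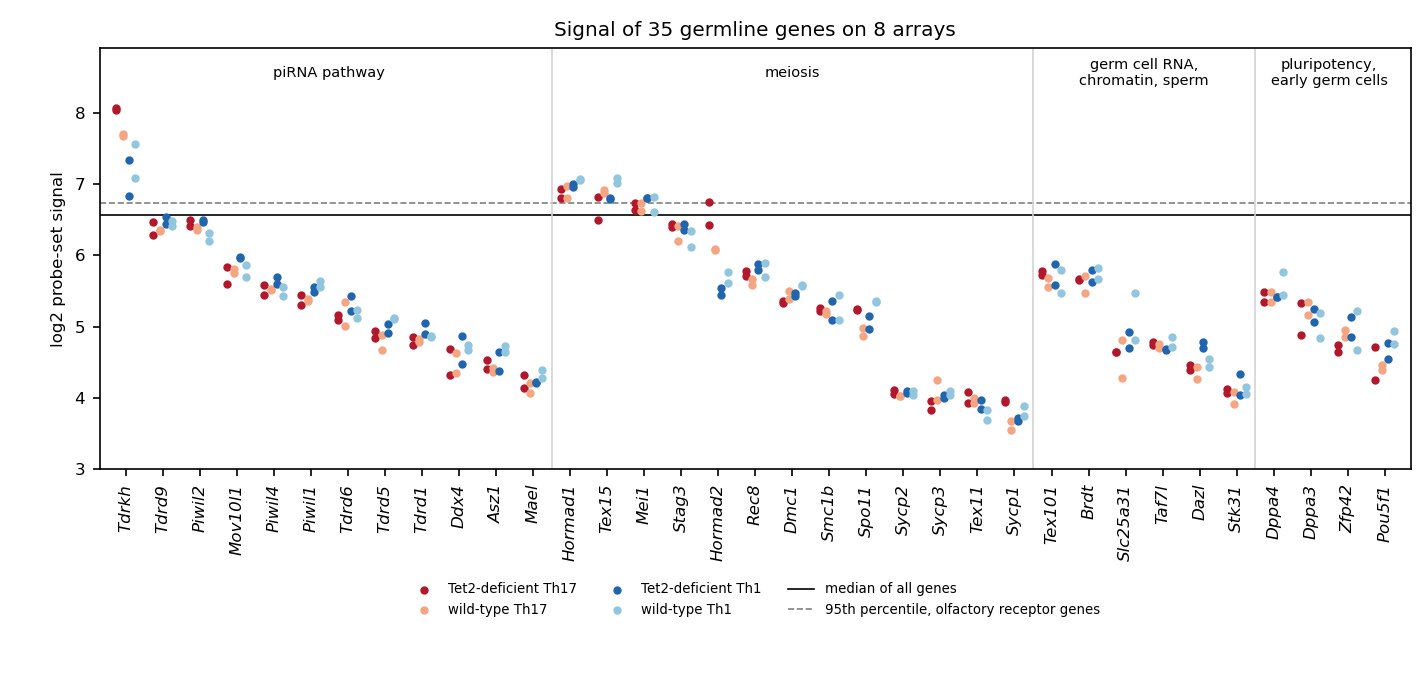
Log2 probe-set signal of the 35 germline genes on 8 arrays, ordered by role and, within a role, by mean; each point is one array, coloured by group, the solid line is the median of all genes (6.56) and the dashed line the 95th percentile of olfactory receptor genes (6.73). Most genes lie under both lines, with Tdrkh, Hormad1 and Tex15 above them.

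The first question was whether the loss of Tet2 changed these genes. In Th17 cells none of the 35 passed the test, at a limma adjusted p under 0.05, and percent called among all genes was 0. At an unadjusted p under 0.05 there were 3 (Hormad2, Sycp1 and Spo11), all higher in Tet2-deficient cells, which is 8.57% of the germline genes. Of all genes 4.13% had such a p, 2.6% higher and 1.53% lower. In Th1 cells none passed either, where 0.00502% of all genes did, and 2 had an unadjusted p under 0.05 (Dazl higher, Spo11 lower), which is 5.71% against 6.05% of all genes, 3.2% higher and 2.84% lower. Averaged over both subsets none passed, as for all genes (0%), and 1 gene, Tex15, had an unadjusted p under 0.05 and was lower, against 5.48% of all genes, 3.48% higher and 2% lower.

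The sizes of the signal differences were as follows. In Th17 cells the change of Tet2-deficient over wild-type cells, in log2 units, ran from -0.24 (Tex15) to 0.51 (Hormad2), and the 95% intervals of the 35 genes reached from -0.57 to 0.78. In Th1 cells it ran from -0.32 (Slc25a31) to 0.25 (Dazl), with intervals from -0.77 to 0.49. All 35 intervals of the signal lay within 2-fold in either direction in both subsets, as the plot of effects shows, which for the 32 genes at or under the mark does not limit a change of RNA. The median change was 0.05 in Th17 cells, with 25 of 35 above 0, and -0.04 in Th1 cells, with 16 of 35 above 0. Over all genes the median was 0.01 in both, with 54.4% and 54.1% above 0. The arrays compared differ between the subsets, but the intervals and p-values of both rest on 1 estimate of the spread from all 8 arrays.

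**Figure D3:**
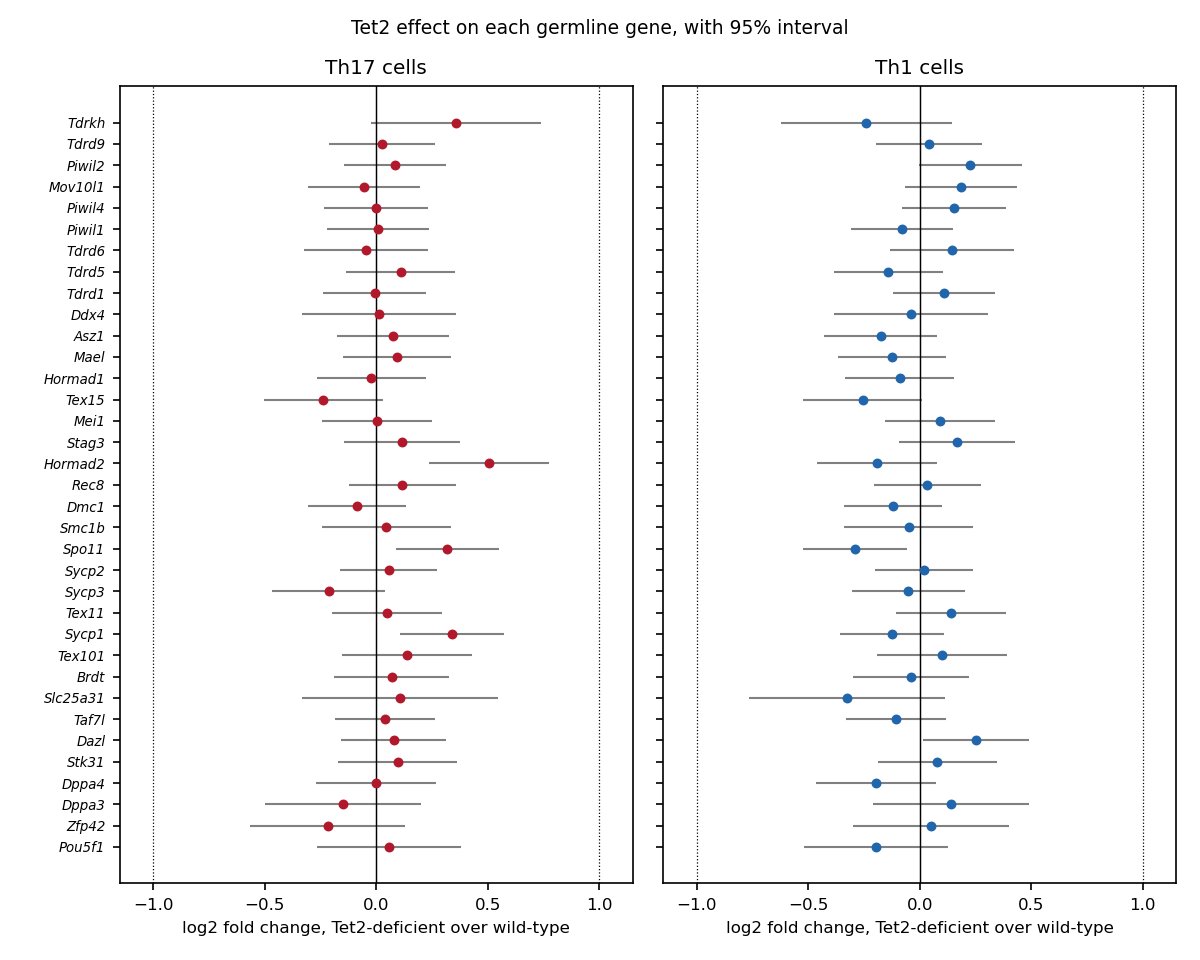
Log2 fold change of Tet2-deficient over wild-type cells for each of the 35 germline genes, in Th17 cells (left) and Th1 cells (right); points are limma estimates, grey lines 95% intervals and dotted lines a 2-fold change of signal. No interval crosses a dotted line, and the highest estimate is that of Hormad2 in Th17 cells (0.51).

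Arrays of both genotypes did not overlap for 9 genes higher and 4 lower in Tet2-deficient Th17 cells, of 35, where 18.8% and 14.1% of all genes were higher and lower without overlap. In Th1 cells the counts were 7 higher and 13 lower, where the shares of all genes were 19.6% and 13.7%. In both subsets at once 1 gene, Piwil2, was higher without overlap and 3, Tex15, Dmc1 and Sycp3, were lower, where 3.8% and 1.94% of all genes were. Sycp3 was nearly tied in Th1 cells, at 4.0365 on Tet2-deficient replicate 2 and 4.0366 on wild-type replicate 2.

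Among the 12 genes of the piRNA pathway, small RNAs bound by PIWI proteins that silence transposons in germ cells, the Tet2 effects were between -0.06 and 0.36 in Th17 cells and between -0.24 and 0.23 in Th1 cells. Piwil2, a PIWI protein known as MILI in the mouse, read 6.50 and 6.41 in Th17 cells lacking Tet2, against 6.35 and 6.39 in wild-type Th17 cells, and 6.46 and 6.50 in Tet2-deficient Th1 cells, against 6.19 and 6.31 in wild-type Th1 cells. Its mean effect over both subsets was 0.16 ± 0.07 (SE), with an adjusted p of 0.915. Mov10l1, the helicase that feeds RNA into piRNA production, read 5.84 and 5.60 in Th17 cells lacking Tet2, against 5.75 and 5.80 in wild-type Th17 cells, and 5.96 and 5.97 in Tet2-deficient Th1 cells, against 5.86 and 5.69 in wild-type Th1 cells. Only its Th1 arrays were free of overlap, at 0.19 ± 0.12 (SE) and an adjusted p of 0.853. Tdrkh differed by 0.36 ± 0.18 in Th17 cells and by -0.24 ± 0.18 in Th1 cells, neither past the test (adjusted p 1.0 and 0.887). The other members, the PIWI proteins Piwil1 and Piwil4, the Tudor proteins Tdrd1, Tdrd5, Tdrd6 and Tdrd9, and Ddx4, Mael and Asz1 of the germ cell granule, all had adjusted p values of at least 0.859 in both subsets.

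Among the 13 meiotic genes the effects were between -0.24 and 0.51 in Th17 cells and between -0.29 and 0.17 in Th1 cells. Hormad2, a HORMA domain protein that marks unpaired meiotic chromosome axes, read 6.42 and 6.75 in Th17 cells lacking Tet2, against 6.09 and 6.07 in wild-type Th17 cells. Its Th1 arrays read 5.54 and 5.44 in Tet2-deficient cells, against 5.61 and 5.76 in wild-type cells. Tet2-deficient cells were thus the higher ones in Th17 and the lower ones in Th1, without overlap in either, at 0.51 ± 0.12 (SE, adjusted p 0.728) and -0.19 ± 0.12 (adjusted p 0.855). The Th17 effect ran from 0.35 to 0.67 when each array was left out. The highest Hormad2 array, Tet2-deficient Th17 replicate 2, was the one with the 100% female share.

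Spo11, the enzyme that cuts DNA at the start of meiotic recombination, read 5.23 and 5.25 in Th17 cells lacking Tet2, against 4.86 and 4.98 in wild-type Th17 cells, and 5.15 and 4.97 in Tet2-deficient Th1 cells, against 5.34 and 5.36 in wild-type Th1 cells. The order of the genotypes was again opposite in the subsets, at 0.32 ± 0.11 in Th17 cells (SE, adjusted p 0.997) and -0.29 ± 0.11 in Th1 cells (adjusted p 0.797). Sycp1, the filament that joins paired chromosomes, read 3.94 and 3.96 in Th17 cells lacking Tet2, against 3.67 and 3.55 in wild-type Th17 cells, and 3.68 and 3.71 in Tet2-deficient Th1 cells, against 3.75 and 3.89 in wild-type Th1 cells. It followed the same order, at 0.34 ± 0.11 in Th17 cells (SE, adjusted p 0.933) and -0.12 ± 0.11 in Th1 cells (adjusted p 0.903).

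The difference between the Tet2 effects, Th17 minus Th1, was tested directly for every gene. None of the 35 passed, as for all genes (0%), with 4 at an unadjusted p under 0.05, all above 0, which is 11.4% against 4.48% of all genes, 2.58% above and 1.9% below 0. These were Hormad2 (0.70 ± 0.18, SE, adjusted p 0.962), Spo11 (0.61 ± 0.15, adjusted p 0.961), Tdrkh (0.60 ± 0.25, adjusted p 0.999) and Sycp1 (0.46 ± 0.15, adjusted p 0.999). The median difference of the 35 genes was 0.04.

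Tex15 was the germline gene with the same order in both subsets and the smallest p of the mean effect. It read 6.49 and 6.82 in Th17 cells lacking Tet2, against 6.87 and 6.92 in wild-type Th17 cells, and 6.79 and 6.79 in Tet2-deficient Th1 cells, against 7.01 and 7.08 in wild-type Th1 cells. All 4 Tet2-deficient arrays lay under all wild-type arrays, and the mean effect was -0.25 ± 0.09 (SE), with an adjusted p of 0.901. Dmc1, the recombinase of meiosis, read 5.34 and 5.36 in Th17 cells lacking Tet2, against 5.49 and 5.38 in wild-type Th17 cells, and 5.47 and 5.43 in Tet2-deficient Th1 cells, against 5.57 and 5.58 in wild-type Th1 cells. Sycp3 read 3.83 and 3.95 in Th17 cells lacking Tet2, against 4.25 and 3.97 in wild-type Th17 cells, and 4.0 and 4.04 in Tet2-deficient Th1 cells, against 4.10 and 4.04 in wild-type Th1 cells. Their mean effects were -0.10 ± 0.07 and -0.13 ± 0.08 (SE, adjusted p 0.929 each). The meiotic cohesin subunits Rec8, Stag3 and Smc1b differed by 0.04 to 0.12 in Th17 cells and by -0.05 to 0.17 in Th1 cells, without passing.

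Of the 6 genes of germ cell RNA, chromatin and sperm, Dazl, an RNA-binding protein that guides translation in germ cells, read 4.39 and 4.45 in Th17 cells lacking Tet2, against 4.43 and 4.26 in wild-type Th17 cells, and 4.78 and 4.70 in Tet2-deficient Th1 cells, against 4.43 and 4.54 in wild-type Th1 cells. The 2 Tet2-deficient Th1 arrays were the highest of all 8, at 0.25 ± 0.11 over wild-type Th1 cells (SE, adjusted p 0.821). Slc25a31, the ADP and ATP carrier of sperm mitochondria, read 4.65 and 4.65 in Th17 cells lacking Tet2, against 4.81 and 4.28 in wild-type Th17 cells, and 4.93 and 4.70 in Tet2-deficient Th1 cells, against 4.80 and 5.47 in wild-type Th1 cells. A single array, wild-type Th1 replicate 2, stood out, and the Th1 effect of -0.32 became 0.01 without it. The sperm surface protein Tex101, the bromodomain protein Brdt, the transcription factor subunit Taf7l and the Tudor domain protein Stk31 differed by 0.04 to 0.14 in Th17 cells and by -0.11 to 0.10 in Th1 cells.

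The 4 genes of pluripotency and primordial germ cells did not pass either. Pou5f1, the pluripotency factor OCT4, read 4.72 and 4.26 in Th17 cells lacking Tet2, against 4.39 and 4.47 in wild-type Th17 cells, and 4.76 and 4.54 in Tet2-deficient Th1 cells, against 4.75 and 4.94 in wild-type Th1 cells. Zfp42, the pluripotency marker REX1, read 4.73 and 4.64 in Th17 cells lacking Tet2, against 4.86 and 4.95 in wild-type Th17 cells, and 5.14 and 4.85 in Tet2-deficient Th1 cells, against 5.22 and 4.67 in wild-type Th1 cells. Dppa3, which shields the egg's genome from TET3 in the mouse zygote, read 5.33 and 4.88 in Th17 cells lacking Tet2, against 5.16 and 5.35 in wild-type Th17 cells, and 5.06 and 5.24 in Tet2-deficient Th1 cells, against 4.83 and 5.19 in wild-type Th1 cells. Genotypes overlapped for all of these except Zfp42 in Th17 cells, where the effect was -0.22 ± 0.16 (SE, limma adjusted p 1.0). Dppa4, a partner of Dppa2 in embryonic stem cells, differed by -0.20 ± 0.12 in Th1 cells, without overlap (adjusted p 0.855), and overlapped in Th17 cells. Second probe sets for Dppa3 and Dppa4 read lower and did not pass in any comparison.

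The second question was whether the T helper subset changed these genes. Averaged over both genotypes, 3 of the 35 passed at a limma adjusted p under 0.05, which is 8.57%, against 22.2% of all genes: Hormad2 and Tdrkh were higher in Th17 cells and Dazl lower, where 12.4% of all genes were higher and 9.79% lower. In Tet2-deficient cells 2 passed, Hormad2 and Tdrkh, both higher, where 10.1% of all genes did and 6.32% were higher, and in wild-type cells 1 passed, Spo11, which was lower, where 8.4% of all genes did and 3.44% were lower. The averaged comparison uses the same arrays as the other 2 and is no separate evidence. With the genotypes pooled, every Th17 array lay above every Th1 array for 2 genes, Hormad2 and Tdrkh, and below for 2. By the same rule 12.7% of all genes were higher and 11.9% lower.

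Hormad2 had a higher signal in Th17 than in Th1 cells among Tet2-deficient arrays, by 1.09 ± 0.12 log2 units (SE, n = 2 arrays each, limma adjusted p 0.000152). Among wild-type arrays it was 0.39 ± 0.12 (adjusted p 0.0718), and averaged over the genotypes 0.74 ± 0.09 (adjusted p 9.08e-05). All 4 Th17 arrays, from 6.07 to 6.75, lay above all 4 Th1 arrays, from 5.44 to 5.76. The Th1 arrays, and all Th17 arrays except Tet2-deficient replicate 2, were under the olfactory receptor mark, so no fold of RNA is given. The averaged call was kept in every leave-one-out fit, at 0.66 to 0.82, and in every other alternative in which the gene was tested. It was 0.66 without Tet2-deficient Th17 replicate 2, the array with the 100% female share, and 0.63 with female share as a covariate (adjusted p 0.00339). A filter on genes above the median signal removes Hormad2, whose mean was 5.96.

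Tdrkh was 1.95-fold higher in Th17 than in Th1 cells among Tet2-deficient arrays, at 0.96 ± 0.18 (SE, adjusted p 0.00421). Among wild-type arrays it was 0.37 ± 0.18 (adjusted p 0.223), and averaged 0.67 ± 0.12 (adjusted p 0.00259). The 4 Th17 arrays, from 7.67 to 8.06, lay above the 4 Th1 arrays, from 6.83 to 7.56, which spread more widely. Without Tet2-deficient Th1 replicate 1 the difference in Tet2-deficient cells was 0.71 and lost the call (adjusted p 0.0554), and with female share as a covariate it was 0.94 and lost it too (adjusted p 0.0567). The averaged call was kept under every alternative. The Th17 arrays with a female share of 14.7% and 100% read 8.03 and 8.06 for Tdrkh, and those with 0.187% and 42.9% read 7.67 and 7.71.

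Spo11 was lower in Th17 than in Th1 cells among wild-type arrays, at -0.42 ± 0.11 log2 units of signal (SE, adjusted p 0.0294). Among Tet2-deficient arrays the subsets stood the other way round, at 0.18 ± 0.11 (adjusted p 0.323). The wild-type call was lost in all 4 fits that left out an array, at adjusted p values from 0.0801 to 0.141 (the highest without wild-type Th17 replicate 1, the lowest without wild-type Th1 replicate 2). It was also lost with only wild-type arrays in the fit (0.0626), after quantile normalization again (0.139) and with female share as a covariate (0.0522). Dazl was lower in Th17 cells by 0.23 on the log2 scale, averaged over genotypes (limma adjusted p 0.0489). Its subsets did not overlap within either genotype, but Th17 and Th1 arrays overlapped when the genotypes were pooled. With female share as a covariate the Dazl difference was -0.22 and not called (adjusted p 0.218). All arrays of Spo11 and Dazl were under the mark. This call was kept in 1 of 8 leave-one-out fits, the one without wild-type Th17 replicate 1, and in 1 of 9 other alternatives, and its adjusted p reached 0.327 under them. The plot of the called genes by array shows the separation of Hormad2 and Tdrkh and the smaller steps of Spo11 and Dazl.

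**Figure D4:**
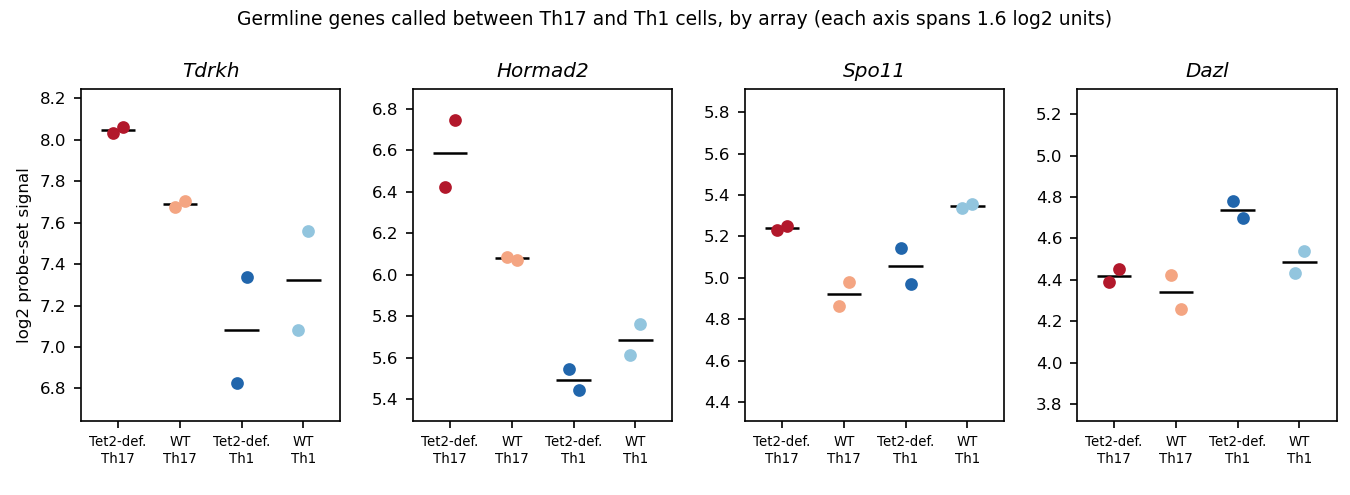
Log2 probe-set signal of the 4 germline genes called between Th17 and Th1 cells in any comparison, by group; each point is one array, bars are means of 2 arrays, and every axis spans 1.6 log2 units. Th17 arrays lie above Th1 arrays for Tdrkh and Hormad2 in both genotypes.

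Other genes had the smallest p values of a direction in a subset comparison without passing. Tdrd5, a Tudor protein of the piRNA pathway, read 4.94 and 4.83 in Tet2-deficient Th17 cells and 4.67 and 4.88 in wild-type Th17 cells, against 4.91 and 5.04 in Tet2-deficient Th1 cells and 5.10 and 5.12 in wild-type Th1 cells. Its wild-type subset difference was -0.33 ± 0.11 (SE, adjusted p 0.0878). Tex11, an X-linked meiotic gene, read 3.93 and 4.09 in Tet2-deficient Th17 cells and 3.99 and 3.93 in wild-type Th17 cells, against 3.84 and 3.98 in Tet2-deficient Th1 cells and 3.70 and 3.84 in wild-type Th1 cells. Its averaged difference was 0.15 ± 0.08 (adjusted p 0.207), and Taf7l, the other X-linked gene of the 35, differed by 0.01. Slc25a31 (-0.38 ± 0.14, adjusted p 0.0764) and Pou5f1 (-0.29 ± 0.10, adjusted p 0.0657) had the largest averaged differences below 0, with overlapping arrays. Sycp1 differed by 0.26 ± 0.11 in Tet2-deficient cells (adjusted p 0.157), and Zfp42 by -0.31 ± 0.16 (adjusted p 0.258).

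By role, the averaged subset difference had a median of -0.11 over the 12 piRNA genes, -0.04 over the 13 meiotic genes, -0.10 over the 6 genes of germ cell RNA, chromatin and sperm, and -0.14 over the 4 early genes. Over all 35 it was -0.10, with 27 below 0, and over all genes -0.04. The median of the 35 moved to -0.0026 when the signals were quantile normalized again, so its size depended on the scaling. Arrays did not overlap for 4 genes higher and 16 lower in wild-type Th17 cells, where 23.8% and 28.4% of all genes were, and for 5 higher and 13 lower in Tet2-deficient Th17 cells, where 25.8% and 31.7% of all genes were.

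Markers of other cells that a T cell culture could hold were read beside these results. None of the 2 CD8 T cell, 4 B cell or 6 myeloid markers had a mean above the olfactory receptor mark, so 0 of 12 stood above it. The summed signal of the B cell markers was 7.61 to 7.76 on the Th17 arrays and 7.68 to 7.83 on the Th1 arrays, and that of the myeloid markers was 7.75 to 7.86 and 7.85 to 7.99, on the log2 scale. Of 4 NK cell markers 1, Eomes, which T cells also use, stood above the mark. Their summed signal was 8.32 to 8.68 in Tet2-deficient Th17 cells, 7.84 to 8.0 in wild-type Th17 cells, 8.60 to 8.67 in Tet2-deficient Th1 cells and 8.66 to 8.67 in wild-type Th1 cells. Klrd1 of that list, an NK cell receptor chain, read 7.25 and 8.07 in Th17 cells lacking Tet2 and 6.30 and 6.51 in wild-type Th17 cells, against 5.89 and 5.97 in Tet2-deficient Th1 cells and 5.94 and 5.70 in wild-type Th1 cells. Its highest array, Tet2-deficient Th17 replicate 2, was also the highest for Hormad2. The Th17 over Th1 difference of Klrd1 was 1.73 ± 0.20 in Tet2-deficient cells (adjusted p 0.000207) and 0.59 ± 0.20 in wild-type cells (adjusted p 0.0969), larger in Tet2-deficient cells as for Hormad2, and its Tet2 effect in Th17 cells was 1.25 ± 0.20 (adjusted p 0.183). Averaged over genotypes Klrd1 was higher in Th17 cells (1.16 ± 0.14, adjusted p 0.00014) and Eomes lower (-1.37 ± 0.09, adjusted p 1.01e-06). Ncr1 and Klrb1c of the same list stayed low, at 4.17 to 4.81 and 3.90 to 4.22 over the 8 arrays. Of the 4 NK cell markers, 1 had an averaged subset difference above 0 and 3 below. Klrd1 thus did not stand for its list. The part of these markers in the germline results was not tested.

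The genes around Hormad2 and Tdrkh were examined after these calls were seen. Hormad2 spans chr11:4345801-4441198, and both measured genes within 100 kb of it were also higher in Th17 than in Th1 cells. Lif, a cytokine of the interleukin-6 family, was higher by 0.60 ± 0.09 (SE, limma adjusted p 0.000632), by 0.26 ± 0.13 in Tet2-deficient and by 0.93 ± 0.13 in wild-type cells. Mtmr3, a phosphoinositide phosphatase, was higher by 0.80 ± 0.09 (adjusted p 6.07e-05), by 0.70 ± 0.13 in Tet2-deficient and by 0.90 ± 0.13 in wild-type cells. Lif thus had the smaller difference in Tet2-deficient cells, where Hormad2 had the larger, though for neither gene did the difference between genotypes pass the test.

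Tdrkh spans chr3:94413243-94434854, and 2 of its 8 measured neighbours were called, in opposite directions. Lingo4, whose end lies 8.74 kb from Tdrkh, was higher in Th17 cells by 0.33 ± 0.11 (adjusted p 0.0463), and Them5 was lower, at -0.28 ± 0.08 (adjusted p 0.0195). Oaz3, a testis antizyme gene that overlaps the end of Tdrkh, differed by -0.02 ± 0.08. Among all genes 22.2% were called in this averaged comparison, so the neighbours' counts of 2 of 2 and 2 of 8 are small numbers beside that background. With female share as a covariate Them5 lost its call (adjusted p 0.235), as it did without Tet2-deficient Th17 replicate 2 (0.0803), and after quantile normalization again both Them5 (0.133) and Lingo4 (0.216) lost theirs. Lif and Mtmr3 kept theirs under these alternatives. Near Spo11 none of 3 measured genes was called. Near Dazl 1 of 2 was, Rftn1, a lipid raft protein, which was higher in Th17 cells by 0.88 ± 0.11 (adjusted p 0.000141), opposite in direction to Dazl.

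**Figure D5:**
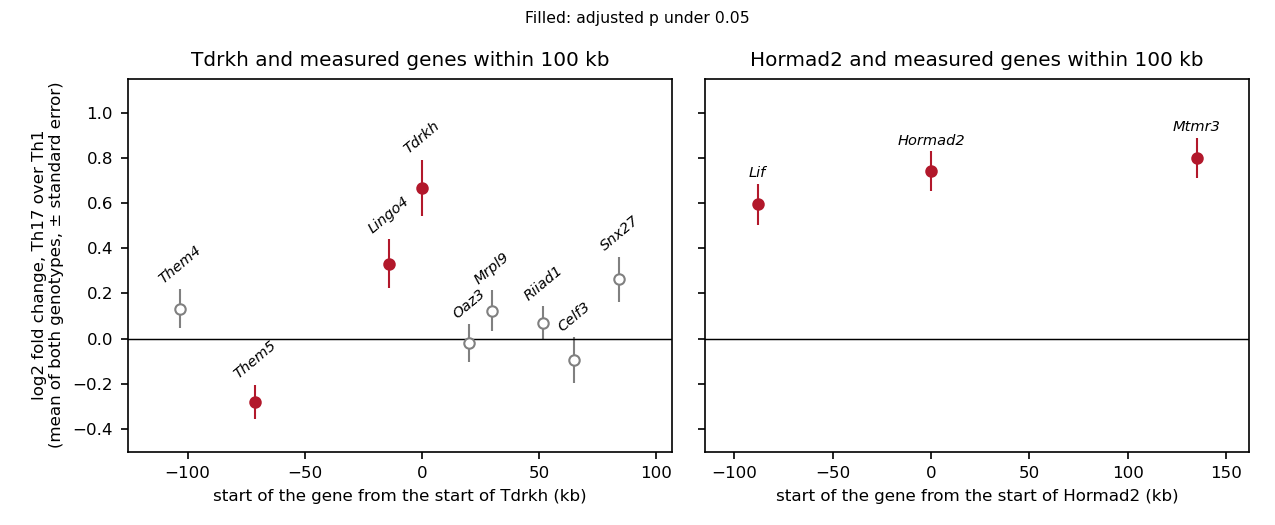
Log2 fold change of Th17 over Th1 cells, averaged over genotypes, for Tdrkh (left) and Hormad2 (right) and the measured genes that lie within 100 kb of them, by the distance in kb between gene starts; lines are standard errors and filled points have an adjusted p under 0.05. Both neighbours of Hormad2 are higher in Th17 cells, while the neighbours of Tdrkh lie on both sides of 0.

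Genes outside the 35 were read from lists of the same roles, and not all of them had low signals. Syce2 read 7.97 to 8.51 over the 8 arrays, above the olfactory receptor mark. Mlh3 read 7.23 to 7.52 on the Th17 arrays and 6.34 to 6.81 on the Th1 arrays. Ccnb1ip1 read 7.31 to 7.46 on the Th1 arrays and 6.31 to 7.19 on the Th17 arrays. For both genes the lower subset held arrays on both sides of the mark. Of 10 measured piRNA genes, 24 meiotic genes and 12 early germ cell or pluripotency genes, none was called between Tet2-deficient and wild-type cells in either subset by limma, and 1, Msh5 in Th1 cells, had an unadjusted p under 0.05 (-0.30, adjusted p 0.804). Between Th17 and Th1 cells, averaged over genotypes, 1 of 10, 3 of 24 and 4 of 12 were called, against 22.2% of all genes. Mlh3, a mismatch repair protein that resolves meiotic crossovers, was higher in Th17 cells by 0.79 ± 0.11 (SE, adjusted p 0.000253), and Ythdc2, an RNA helicase of meiotic entry, by 0.41 ± 0.10 (adjusted p 0.00997). Ccnb1ip1, a crossover regulator, was lower, at -0.59 ± 0.16 (adjusted p 0.0178), as was the piRNA gene Tdrd7, at -0.27 ± 0.07 (adjusted p 0.0225). With female share as a covariate Mlh3 and Ythdc2 kept their calls, while Ccnb1ip1 (-0.28, adjusted p 0.296) and Tdrd7 (adjusted p 0.125) lost theirs, and both also lost them without Tet2-deficient Th17 replicate 2 (0.0725 and 0.0727).

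The 4 called early genes, 33.3% of the 12, were all lower in Th17 cells, where 9.79% of all genes were called lower. Dppa2, the partner of Dppa4, read 5.38 and 5.35 in Tet2-deficient Th17 cells and 5.39 and 5.13 in wild-type Th17 cells, against 5.84 and 5.81 in Tet2-deficient Th1 cells and 5.60 and 5.77 in wild-type Th1 cells. Every Th17 array lay under every Th1 array, as for 11.9% of all genes, at -0.44 ± 0.08 (SE, adjusted p 0.00267). Dppa2 had 2 probe sets, and only the one with the higher mean is described. The others were Tdgf1 (-0.33 ± 0.09), Dppa5a (-0.39 ± 0.12) and Sohlh2 (-0.25 ± 0.08), with adjusted p values of 0.0246, 0.0414 and 0.0449. These 3 lost their calls with female share as a covariate (0.146, 0.433 and 0.186), without Tet2-deficient Th17 replicate 2 (0.0724, 0.129 and 0.0745) and after quantile normalization again (0.0918, 0.0614 and 0.336). Dppa2 kept its call under each of these, at an adjusted p of 0.0497 with female share as a covariate. All arrays of Dppa2, Tdgf1 and Sohlh2 were under the olfactory receptor mark.

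The proteins that silence germline genes were mostly above that mark, 21 of 22 by their mean, and by limma 0 of 22 were called between Tet2-deficient and wild-type cells in either subset. In Th1 cells 2 of them had an unadjusted p under 0.05, Max (0.49, adjusted p 0.797) and Cbx3 (-0.37, adjusted p 0.821), where 6.05% of all genes had one, and in Th17 cells none had. Between Th17 and Th1 cells, averaged over genotypes, 3 of 22 were higher and 1 lower, 18.2% in all against 22.2% of all genes. Higher were Ehmt1, a histone H3 methyltransferase (0.32 ± 0.08, SE, adjusted p 0.0136), Rnf2, the Polycomb ubiquitin ligase (0.30 ± 0.10, adjusted p 0.0494), and Setdb1, a histone methyltransferase (0.27 ± 0.09, adjusted p 0.0476). Dnmt3a, a DNA methyltransferase that sets new methylation, was lower, at -0.34 ± 0.09 (adjusted p 0.0147). None of these 4 calls was kept with female share as a covariate (adjusted p 0.0954 to 0.158). Without Tet2-deficient Th17 replicate 2 only that of Ehmt1 was kept, and after quantile normalization again only that of Dnmt3a. Dnmt1, which copies methylation at replication, read 9.18 and 9.36 in Tet2-deficient Th17 cells and 9.12 and 9.20 in wild-type Th17 cells, against 9.06 and 9.13 in Tet2-deficient Th1 cells and 9.13 and 9.21 in wild-type Th1 cells.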

How the data were processed

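The authors deposited a log2 signal for each probe set on 8 Affymetrix arrays. The submitters' processing notes list RMA, GCOS and Affymetrix Expression Console. The background correction and summarization settings are not given in the sources used here. Of 35556 probe sets, 21789 carried 1 gene symbol in the platform annotation, 1621 carried several and 12146 none; only the first kind was used. The probe set with the highest mean signal stood for a gene, which left 19938 genes. limma 3.58.1 in R 4.3.3 was fitted across all of these with 1 mean per group and an intensity trend, and p-values were adjusted by Benjamini-Hochberg over all genes. The small number of arrays, with 4 residual degrees of freedom, limits the precision.

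The germline genes and the other lists were chosen with earlier results of these data known. Values on every array were given for genes called in any comparison, for up to 3 genes per direction and comparison with the smallest unadjusted p, and for the 6 with the highest mean signal. Genes near the called ones were chosen after their values were seen. Promoters came from RefSeq (GRCm38.p6). Replicate numbers did not visibly pair the arrays. Correlations of same-numbered deviations lay between -0.186 and 0.0613, and the labels do not say whether same-numbered arrays share an origin. Alternatives covered the scaling, the choice of probe set, filters, variance settings, a replicate block, array weights, the female share and leaving out each array. For the genes outside the 35, the female share, the scalings and the fit without Tet2-deficient Th17 replicate 2 were added after the data were seen.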

Additional observations from a re-analysis of the deposited data

Results flagged for a closer look

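For 3 of the 35 germline genes, every Tet2-deficient array lay above every wild-type array in Th17 cells and below every wild-type array in Th1 cells, against 2.76% of all genes. The Tet2 effect in Th17 cells minus that in Th1 cells was 0.70 for Hormad2, 0.61 for Spo11 and 0.46 for Sycp1 on the log2 scale. None of these differences passed the limma test of the difference itself, with adjusted p values of 0.962, 0.961 and 0.999. The opposite pattern was shown by 0 of the 35 genes, against 2.2% of all genes. The female share also differed between the Th17 arrays of the genotypes, as given above.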

How the results depend on the processing

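Results were recomputed with other settings, one at a time. In Th17 or Th1 cells, averaged or as a difference, 0 germline genes were called for Tet2 under every setting run, leaving out each array included. The count called between Th17 and Th1 cells ran from 1 to 2 in Tet2-deficient cells, 0 to 1 in wild-type cells and 2 to 4 averaged when each array was left out. In wild-type cells it was 0 with only the arrays compared, with genes above the median signal and with the female share, and 1 after quantile normalization again, where Hormad2 and not Spo11 was called. In Tet2-deficient cells it was 1 with genes above the median signal (Tdrkh) and with the female share (Hormad2), and averaged it was 1 with genes above the median signal (Tdrkh). The filter on genes above the median signal leaves 4 of the 35 genes. It removes Spo11, Hormad2 and Dazl, so their calls could not be kept or lost there. With all arrays, the averaged count was 2 or 3 under the other settings, and 2 wherever Dazl alone lost its call; after quantile normalization again Tex11 stood in place of Dazl.

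Quantile normalization again moved the median subset difference to 0.0155 in Tet2-deficient cells, -0.0053 in wild-type cells and -0.0026 averaged. With the filter on genes above the median signal, the median Tet2 effect in Th1 cells was -0.16. That median covers only the 4 germline genes left, Tdrkh, Hormad1, Tex15 and Mei1. Leaving out each array, the medians ran from 0.0207 to 0.0634 (Tet2, Th17), -0.0697 to -0.0095 (Tet2, Th1), -0.0101 to 0.0445 (Tet2, averaged), -0.0044 to 0.0877 (difference), -0.0932 to -0.0183 (subset, Tet2-deficient), -0.1289 to -0.0608 (subset, wild-type) and -0.1202 to -0.08 (subset, averaged). Without wild-type Th1 replicate 2 the Tet2 effect on Slc25a31 in Th1 cells was 0.00896, against -0.6589 without replicate 1, and the difference of the Tet2 effects on Zfp42 was 0.002661, against -0.5411 without replicate 1. The causes were not tested.

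With the replicate block, 0 genes were called for Tet2, 2 between subsets in Tet2-deficient cells, 1 in wild-type cells and 2 averaged, where Dazl lost its call (adjusted p 0.0662); it changed no other call. Signals at or under the olfactory receptor mark limit what these values say about RNA.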
